A study of Mus musculus with 12 samples.

Results

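The 5 H4K12ac peak lists of control mice describe where acetylation of lysine 12 of histone H4 was found in neurons of the hippocampus that kept TIP60. They were chosen by their labels, which give the antibody H4K12ac, the genotype control and the replicate numbers 1 to 5. They are 5 of the 10 peak lists and of the 12 samples of the series, and the other samples are the lists of Tip60 conditional knock-out mice and the 2 pooled inputs, which were not compared here. The 5 lists held 603897 peaks in all, 125511 in control mouse 1, 131514 in mouse 2, 116888 in mouse 3, 93575 in mouse 4 and 136409 in mouse 5. Control mice carried the floxed Tip60 gene on both alleles (Tip60 f/f) and no CaMKCreER T2 driver. They received the tamoxifen injections that the knock-out littermates received, so that floxed alleles and tamoxifen are shared by every library described here. The labels give an age of 3 months, male sex and the strain C57BL/6J, whereas the methods of the study name either sex and a C57BL/6N background, and these statements cannot be reconciled here. Chromatin came from neuronal nuclei of the whole hippocampus, sorted by flow cytometry, so a list is a mixture of CA1, CA3, dentate gyrus and other neurons. The ChIP methods of the study name no day. Its introduction places the H4K12ac result at start sites within 10 days after Tip60 deletion in the knock-out mice. A single input library, pooled from the control mice, served as background for all 5 lists, and it carries no mouse-to-mouse variation.

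Histone acetylation neutralises the positive charge of lysines in histone tails, and acetylated tails are bound by proteins with bromodomains. H4K12ac is one of several acetylation marks of histone H4 and is known from the promoters and bodies of active genes. TIP60 (Kat5) is one of the histone acetyltransferases that can place it, and H4K12ac has been studied in the hippocampus in connection with learning.

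Single sequences illustrate the range at genes with and without a peak within 2 kb of the start and at summits away from gene starts. The first set holds bases 1 to 200 upstream of the transcription start site (TSS) of 6 genes, read 5′ to 3′ on the strand of the gene, and these bases need not lie inside the peak of the gene. Pcif1 (chr2:164879104-164879303, + strand) had the highest mean rank among protein-coding genes, Grik4 (chr9:42944494-42944693, - strand) is a CA3 marker among the 20 highest genes, and Nlrx1 (chr9:44268600-44268799, - strand) is one of only 2 CpG-poor promoters among these 20. Neurod2 (chr11:98329649-98329848, - strand) is the highest of the excitatory neuron markers. Gad1 (chr2:70552872-70553071, + strand) and Olig2 (chr16:91225257-91225456, + strand) are markers of inhibitory neurons and of oligodendrocytes that lacked a peak in all 5 lists. For every gene the TSS is the outermost annotated 5′ end, and other starts of the gene were not scored on their own. The second set holds 200 bases around the summit, on the + strand, of the intergenic region with the highest mean rank by fold enrichment (chr2:30707697-30707896), of the intergenic region in place 5 (chr8:119801542-119801741) and of the region inside a gene with the highest mean rank (chr12:49401420-49401619, in 3110039M20Rik). Coordinates and bases are those of mm10, lower case is sequence, and capitals mark each CG dinucleotide, the site of most DNA methylation in mammals.
Pcif1 promoter: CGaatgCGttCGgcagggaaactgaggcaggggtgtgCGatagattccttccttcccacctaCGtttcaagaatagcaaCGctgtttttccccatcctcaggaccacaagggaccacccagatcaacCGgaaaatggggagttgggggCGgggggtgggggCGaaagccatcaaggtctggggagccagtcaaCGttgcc
Grik4 promoter: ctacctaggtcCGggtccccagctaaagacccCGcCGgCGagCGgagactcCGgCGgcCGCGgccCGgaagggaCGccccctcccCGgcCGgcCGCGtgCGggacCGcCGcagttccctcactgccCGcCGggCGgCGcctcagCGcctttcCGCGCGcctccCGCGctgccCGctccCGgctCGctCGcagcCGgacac
Nlrx1 promoter: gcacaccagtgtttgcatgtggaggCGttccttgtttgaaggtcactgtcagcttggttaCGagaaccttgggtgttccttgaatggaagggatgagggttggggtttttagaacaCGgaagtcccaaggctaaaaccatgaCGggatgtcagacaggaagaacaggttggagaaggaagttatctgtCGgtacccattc
Neurod2 promoter: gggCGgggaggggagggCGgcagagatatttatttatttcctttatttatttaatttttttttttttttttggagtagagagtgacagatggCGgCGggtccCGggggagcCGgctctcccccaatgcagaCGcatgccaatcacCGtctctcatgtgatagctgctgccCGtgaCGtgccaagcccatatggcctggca
Gad1 promoter: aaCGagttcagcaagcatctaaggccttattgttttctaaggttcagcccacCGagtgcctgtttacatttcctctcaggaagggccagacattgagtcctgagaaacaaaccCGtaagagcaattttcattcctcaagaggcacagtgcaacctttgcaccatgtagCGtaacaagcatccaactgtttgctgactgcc
Olig2 promoter: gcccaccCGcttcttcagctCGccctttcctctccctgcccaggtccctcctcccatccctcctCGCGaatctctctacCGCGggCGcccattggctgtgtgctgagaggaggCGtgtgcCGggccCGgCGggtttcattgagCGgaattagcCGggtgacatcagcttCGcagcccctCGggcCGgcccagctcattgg
Intergenic summit on chromosome 2: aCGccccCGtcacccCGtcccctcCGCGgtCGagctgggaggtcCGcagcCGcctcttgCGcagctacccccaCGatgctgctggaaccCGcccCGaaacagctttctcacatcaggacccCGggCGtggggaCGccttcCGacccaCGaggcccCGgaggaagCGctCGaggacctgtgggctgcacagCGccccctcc
Intergenic summit on chromosome 8: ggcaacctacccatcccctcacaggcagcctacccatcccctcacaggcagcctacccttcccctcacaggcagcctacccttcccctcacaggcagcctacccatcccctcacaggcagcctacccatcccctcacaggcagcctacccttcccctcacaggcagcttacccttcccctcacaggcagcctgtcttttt
3110039M20Rik summit: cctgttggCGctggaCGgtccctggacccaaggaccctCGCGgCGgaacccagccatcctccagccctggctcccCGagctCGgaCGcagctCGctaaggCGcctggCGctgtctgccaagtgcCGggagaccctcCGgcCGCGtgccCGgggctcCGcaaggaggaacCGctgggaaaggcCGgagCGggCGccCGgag

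The Olig2 window holds 16 CG dinucleotides and the Pcif1 window 10, so a dense run of CG was present at a gene without a peak as well as at one with a peak. The Grik4 window holds 33, the Nlrx1 window 5 and the Gad1 window 4. Both the first intergenic window and the window in 3110039M20Rik are rich in CG (21 and 22), although neither lies near an annotated start site. The intergenic window on chromosome 8 holds 0 CG and consists of a short unit that repeats in tandem.

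Depth differed between libraries. MACS used 33796590 tags for mouse 1, 33954347 for mouse 2, 31703847 for mouse 3, 27418740 for mouse 4 and 37923809 for mouse 5, against 44889280 input tags. Mouse 4, the library with the fewest tags, gave the fewest peaks, and mouse 5, with the most tags, gave the most. Peaks covered 59.3, 65.5, 52.8, 39.6 and 64.7 Mb in mice 1 to 5. The median peak was 336 ± 15.1 bp long (SD, n = 5 mice, as for all values with ± in the text), had a pileup of 17.4 ± 1.52 overlapping fragments and a fold enrichment of 3.53 ± 0.133 over the local background. Fold enrichment is the ratio of the pileup to the background expected from the input, with 1 added to both. A region without a peak is one that was not detected at the depth of that library, and the part of depth in weak peaks was not tested.

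Promoters held the densest and strongest H4K12ac peaks. A peak was assigned to the promoter class when its summit lay within 2 kb of the annotated 5′ end of a gene, to the gene body class when it otherwise lay inside a gene, and to the intergenic class when it lay in neither. Promoters make up 7.46% of the genome and held 20.8, 20.03, 22.1, 25.3 and 20.2% of the peaks of mice 1 to 5 (mean 21.7 ± 2.16%). Gene bodies held the most peaks, 59.7 ± 2.24%, on 41.8% of the genome. Intergenic sequence, 50.8% of the genome, held 18.6 ± 0.266%. Per megabase this came to 131 ± 7.27 peaks at promoters, 65.5 ± 11.2 in gene bodies and 16.7 ± 2.32 between genes, and the 3 classes did not overlap between mice. The promoter share was highest in mouse 4, the shortest list. It was also higher, at 24.1%, when the same number of strongest peaks was taken from each list.

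Median fold enrichment at promoters was 4.15, 4.06, 4.31, 4.34 and 4.12 in mice 1 to 5. In gene bodies it was 3.36, 3.25, 3.49, 3.57 and 3.35, and between genes 3.39, 3.34, 3.63, 3.64 and 3.45. Every promoter value lay above every value of the other classes, and gene bodies lay slightly below intergenic peaks within each mouse. On the log2 scale the promoter median exceeded the intergenic median by 0.27 ± 0.02, a factor of 1.203, and the gene body median by 0.30 ± 0.02, a factor of 1.23, in 5 of 5 mice. The gene body median was lower than the intergenic median by a mean log2 difference of -0.03 ± 0.02, in 5 of 5 mice. For each of these comparisons the exact two-sided sign-flip test over 5 mice gave p = 0.0625, adjusted 0.0677 over 13 tests. This is the smallest p that 32 sign patterns allow, so this test cannot pass 0.05 with 5 mice, whatever the size of a difference. The difference between promoter and intergenic peaks was 0.27 in the 3 mice of sequencing lane 7 and 0.25 in the 2 mice of lane 8. With the 5′ end of every transcript as a start site it was 0.16, in 5 of 5 mice.

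Pileup separated promoters in the same way but did not separate the other classes. Median pileup at promoters was 21, 21, 20, 18 and 22 fragments in mice 1 to 5, whereas it was 17, 18, 17, 15 and 18 in gene bodies and 17, 17, 17, 15 and 19 between genes. Promoters were higher in each mouse, by 0.26 ± 0.04 on the log2 scale against intergenic peaks and by the same mean difference, 0.26 ± 0.04, against gene bodies (exact two-sided sign-flip p = 0.0625, adjusted 0.0677, for either). Gene body and intergenic medians were equal in 3 mice, higher for gene bodies in mouse 2 and lower in mouse 5, with a mean log2 difference of 0.00 ± 0.06 (exact two-sided sign-flip p = 1). Without mouse 2 the sign of this mean turned, to -0.02.

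Promoter peaks were also the longest. Their median length was 455, 480, 434, 414 and 454 bp in mice 1 to 5, against 319, 336, 308, 293 and 317 bp in gene bodies and 328, 342, 318, 301 and 328 bp between genes. The shortest promoter median, that of mouse 4, was longer than any median of the other classes. Promoter peaks were longer by factors of 1.38 than intergenic peaks and 1.42 than gene body peaks, with log2 differences of 0.47 ± 0.02 and 0.51 ± 0.01 in 5 of 5 mice (exact two-sided sign-flip p = 0.0625, adjusted 0.0677). Peaks over 1 kb made up 14.3 ± 2.48% of promoter peaks, 5.20 ± 1.17% of gene body peaks and 5.61 ± 1.14% of intergenic peaks. Among the 1000 peaks of highest fold enrichment in each list, 81.8 ± 3.58% lay at promoters, and among the highest 10000 still 65.1 ± 1.98%.

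**Figure D1:**
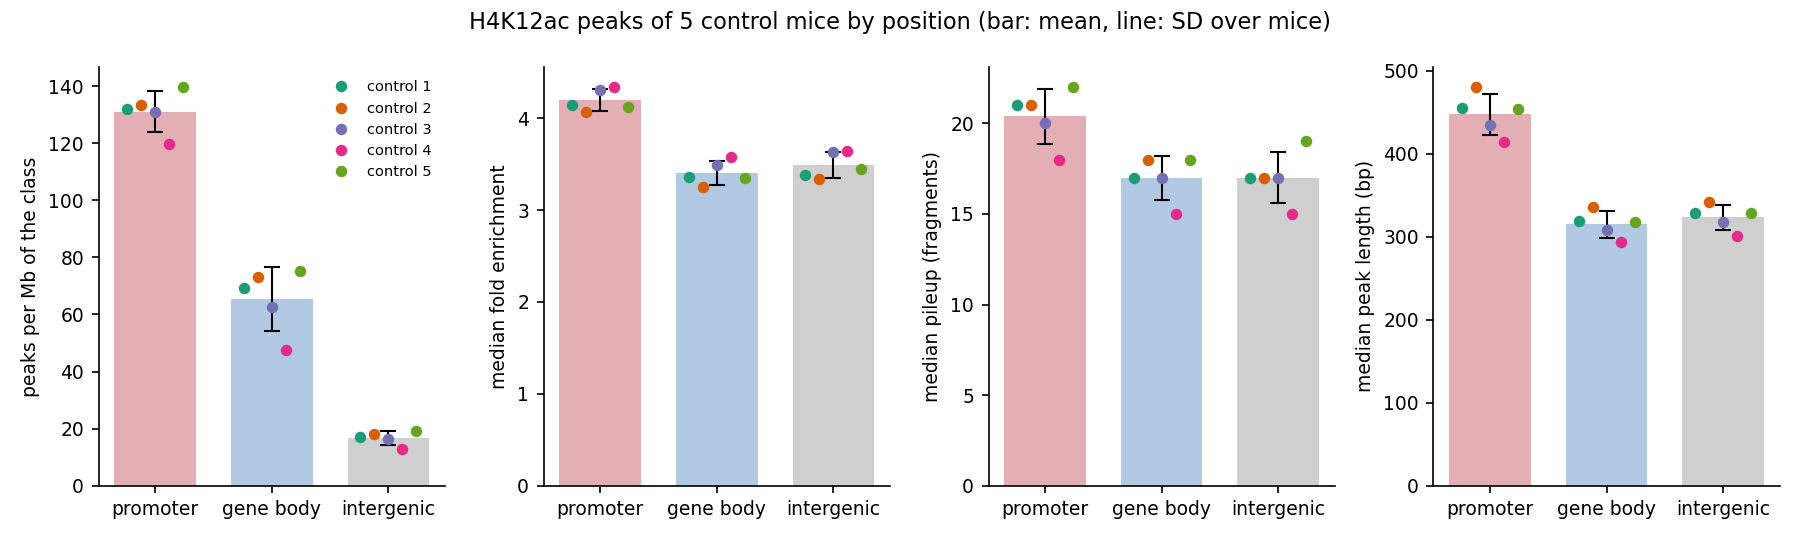
Peaks per Mb of each class, median fold enrichment, median pileup in fragments and median length in bp for promoter, gene body and intergenic H4K12ac peaks. Points are the 5 control mice, bars their mean and lines the SD. Promoter points lie above those of both other classes in density, fold enrichment and length, and mouse 4 has the lowest density, pileup and length in every class.

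The longest constant regions, those merged from overlapping peaks of the lists and holding a peak from all 5, lay mostly inside genes. The longest was 17419 bp (chr8:120547435-120564853), with its summit outside exons. It lay in Gse1, which encodes a component of a histone deacetylase complex, and in the overlapping gene Gm20388. Peaks covered 15236, 16332, 15679, 13032 and 16291 bp of the region in mice 1 to 5. Mouse 4 covered the least of this region and split it into 18 peaks, where the other mice had 8 to 10. Next came regions in Coro2b, a coronin that binds actin (15342 bp), in Dscaml1, a cell adhesion molecule of neurons (12609 bp), in Nfix, a transcription factor of the nuclear factor I family (11938 bp), and in Sh3bp5 (11617 bp). Regions in Kdm4b, a histone demethylase, and in Klhl26 followed, with 11165 and 10860 bp. Of the remaining 3 of the 10 longest, 2 were intergenic, with Rtn4r and Tcf4 as the nearest protein-coding genes, and 1 lay in Grin1, which encodes the obligatory subunit of NMDA receptors, within 2 kb of the start of the non-coding gene Grin1os (10310 bp). The Nfix region was also among the strongest, with a mean fold enrichment of 10.4 ± 1.34.

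Around the TSS of protein-coding genes, coverage by peaks rose on both sides and dipped at the start site itself. At CpG-rich promoters, peaks covered the position 250 bp downstream at 84.0, 84.8, 82.4, 78.8 and 82.0% of 5426 TSSs in mice 1 to 5. At the bin centred on -50 bp this fell to 38.9, 42.2, 35.1, 31.4 and 35.3%. A second maximum stood at -350 bp, with 57.1, 58.1, 54.1, 49.1 and 60.01%. The downstream maximum was higher than the upstream one in every mouse, and the dip lay below both. Promoters of intermediate CpG content showed the same shape at a lower level, with their upstream maximum at -250 bp. CpG-poor promoters had no upstream maximum apart from the rise towards the TSS, and their coverage peaked at 9.06 to 11.5% of 9893 TSSs. A CpG-rich promoter had an observed to expected CpG ratio of at least 0.75 and a GC content of at least 55% in 1 kb around the TSS, and a CpG-poor one a ratio below 0.48.

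The summit of the strongest peak lay downstream of the TSS in most cases. Of 14762 protein-coding TSSs without another gene start nearby, 7276 ± 136 had a peak per list. The median summit position was 227 ± 4.09 bp downstream, with a range of 223 to 232 bp over mice. Downstream summits made up 78.2 ± 1.96%. Summits 0 to 1 kb downstream made up 70.6 ± 1.99% and those 0 to 1 kb upstream 19.2 ± 1.75%.

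**Figure D2:**
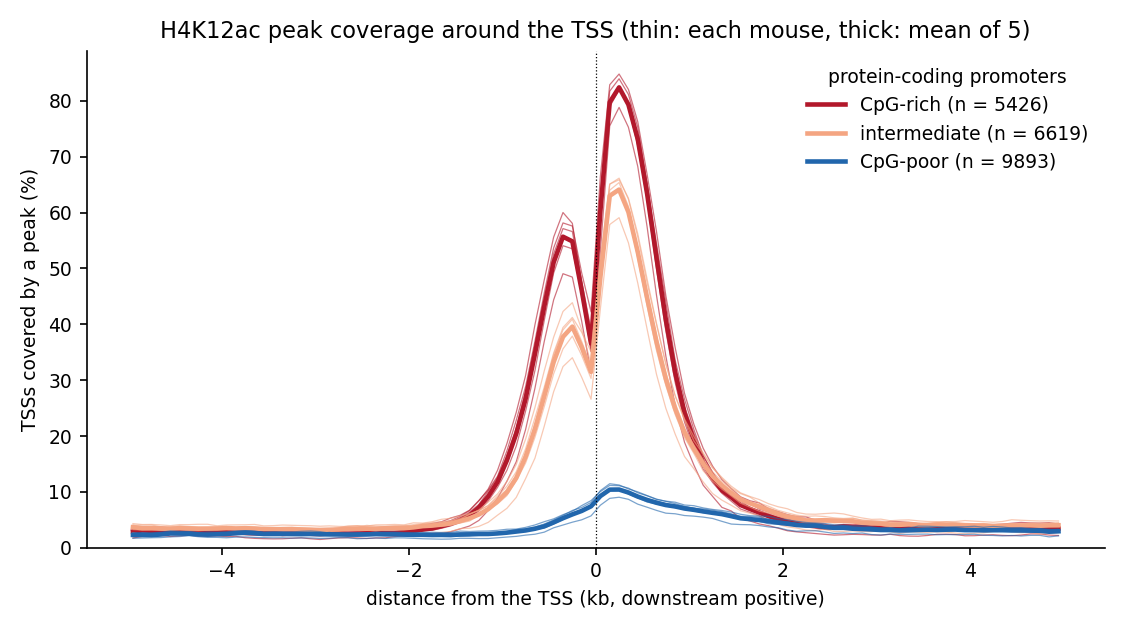
Percent of protein-coding TSSs covered by an H4K12ac peak against the distance from the TSS in kb, in steps of 100 bp, for CpG-rich, intermediate and CpG-poor promoters. Thin lines are the 5 control mice and thick lines their mean. CpG-rich promoters show maxima on both sides, at -350 bp and 250 bp, with a dip at the TSS, and CpG-poor promoters stay below 11.5%.

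The presence of a peak varied with the biotype of a gene and with the CpG content of its promoter. A gene was scored by any peak that overlapped 2 kb on either side of its TSS, the outermost annotated 5′ end of the gene. Over 55413 annotated genes, 15549 had such a peak in all 5 lists, a background of 28.1%, and over 21938 protein-coding genes 11182 did, 51.0%. Protein-coding genes had a peak in 57.3, 58.1, 57.6, 55.8 and 57.6% of cases in mice 1 to 5. Long non-coding RNA (lncRNA) genes whose TSS was over 4 kb from every protein-coding TSS, called alone below, had one in 23.6, 23.8, 22.8, 19.6 and 24.3%. The lowest protein-coding value was more than 30 points above the highest of these lncRNA genes. The difference was 34.5 ± 1.11 percentage points in 5 of 5 mice (exact two-sided sign-flip p = 0.0625, adjusted 0.0677).

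CpG-rich protein-coding promoters had a peak in 93.3, 93.8, 93.5, 92.4 and 92.5% of cases and CpG-poor ones in 22.0, 23.0, 22.2, 20.4 and 22.7%. The ranges of the mice are far apart, and intermediate promoters lay between them at 80.6 ± 1.03%. The difference of CpG-rich minus CpG-poor was 71.0 ± 0.802 points in 5 of 5 mice (exact two-sided sign-flip p = 0.0625, adjusted 0.0677). Where a peak was present, its median fold enrichment followed the same order, 6.38 ± 0.322 at CpG-rich, 5.50 ± 0.132 at intermediate and 4.55 ± 0.132 at CpG-poor promoters. Each median was taken over the promoters with a peak in the list of that mouse, whether or not the other lists had one. The CpG classes also ordered lncRNA genes alone, with a peak at 74.6 ± 2.41% of 115 CpG-rich, 48.9 ± 1.91% of 527 intermediate and 20.2 ± 1.91% of 7370 CpG-poor TSSs. At CpG-poor promoters lncRNA genes alone and protein-coding genes were thus close, at 20.2 and 22.1%. CpG-rich promoters were rare among lncRNA genes alone (115 of 8012) and common among protein-coding genes (5426 of 21938).

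Other biotypes ranged from far above to far below these shares. Bidirectional promoter lncRNAs, which start head to head with a coding gene, had a peak in 86.1 ± 1.27% of 190 cases, and all lncRNA genes near a coding TSS in 70.8 ± 0.990%. Among genes alone, antisense genes had one in 34.7 ± 3.20%, miRNA genes in 19.6 ± 1.92%, lincRNA genes in 17.3 ± 1.30%, snoRNA genes in 13.1 ± 1.96% and snRNA genes in 10.7 ± 1.18%. Pseudogenes alone had one in only 5.12 ± 0.604% of 12808 cases. Among them unprocessed pseudogenes, copies made by duplication, stood at 1.36 ± 0.106%, and processed pseudogenes annotated as transcribed at 12.98 ± 0.853%. Immunoglobulin and T cell receptor segments, which are used in lymphocytes, had a peak in 0.684 ± 0.708% of 702 cases and in all 5 lists in 0 cases. Longer genes had a peak more often, with 42.4 ± 1.07% of protein-coding genes up to 10 kb and 68.6 ± 0.724% of those from 30 to 100 kb.

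The 20 protein-coding genes with the highest mean rank had mean fold enrichments of 11.1 to 13.4. The rank score of a gene is the percent rank of its strongest peak among all gene TSSs with a peak in the same list, with 100 for the strongest and 0 without a peak. Pcif1, which methylates the capped adenosine of mRNAs, stood first, with fold enrichments of 14.0, 15.4, 11.8, 14.3 and 11.3 in mice 1 to 5 and a score of 99.8 ± 0.318. Mice 3 and 5 were lowest and mouse 2 highest at this gene. Zfp532, a zinc finger gene, stood second with the longest peak of the 20, 6710 bp on average (chr18:65579912-65689443, the gene). Its fold enrichments were 12.5, 14.8, 13.7, 14.4 and 9.96, with mouse 5 below the others. Zc3h4, a zinc finger protein that restricts transcription of non-coding RNA, followed with 14.0, 11.9, 12.6, 12.3 and 10.7.

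Several further genes of the 20 encode proteins that modify or remodel chromatin, a grouping made after the genes were known and not tested. Ep300, itself a histone acetyltransferase, had fold enrichments of 11.6, 11.6, 11.6, 13.5 and 13.8 in mice 1 to 5. Mice 4 and 5, the 2 libraries of lane 8, were the highest here. Kmt5b, a methyltransferase of histone H4, had a mean of 12.1 ± 1.70, Msl2, a subunit of an acetyltransferase complex for histone H4, 11.5 ± 1.56, and Chd3, a remodelling ATPase of the NuRD complex, 11.1 ± 1.19. Bicral, a subunit of a BAF remodelling complex, had 11.3 ± 0.904.

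The other genes of the 20 have varied roles. Grik4, a kainate receptor subunit, had fold enrichments of 11.4, 13.2, 14.0, 10.4 and 10.5, Adra1d, an adrenergic receptor, 11.9, 11.7, 12.3, 11.1 and 10.6, and Lgi3, a secreted protein of the brain, 10.6, 10.9, 12.2, 12.1 and 10.8. At these 3 genes mouse 3 was the highest, and no mouse lacked a peak. Klc1, a kinesin light chain, had a mean of 11.9 ± 2.11, with mouse 1 highest at 15.5. B4galnt1, a ganglioside synthase, had 11.5 ± 0.853. Strn3 and Ap4s1 start head to head and shared the same peak, with a mean of 11.4 ± 0.419, the smallest SD among the 20. The rest were Prtg, Nlrx1, Efcab2, Nr2c2 and Casd1, with means of 11.3 to 12.1. Of the 20 promoters, 13 were CpG-rich, 5 intermediate and 2 CpG-poor, Zfp532 and Nlrx1.

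The 5 highest lncRNA genes alone had fold enrichments close to these. Gm34590 on chromosome 15 had fold enrichments of 12.6, 11.9, 13.7, 10.9 and 12.4 in mice 1 to 5. Gm14488 on chromosome 2 had 11.3, 12.2, 11.5, 10.9 and 13.1, and its nearest protein-coding TSS was 83604 bp away. Both had a peak of comparable strength in each mouse, the first at an intermediate and the second at a CpG-poor promoter. Gm48623 followed with a mean of 11.4 ± 0.879, the non-coding transcript annotated under the symbol Ptpmt1 with 11.1 ± 0.891 and 2900072N19Rik with 10.6 ± 1.26.

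Gene families ranged from those with a peak at nearly every member to those with none, against the background of 51.0% of protein-coding genes with a peak in all 5 lists. Housekeeping families were among the highest. Subunits of respiratory complex I had a peak in all 5 lists in 34 of 37 genes, mitochondrial ribosomal proteins in 69 of 78, cytosolic ribosomal proteins in 72 of 83, ubiquitin-conjugating enzymes in 30 of 37 and proteasome subunits in 38 of 50. CpG-rich promoters were found at 9 of 37, 24 of 78, 41 of 83, 24 of 37 and 12 of 50 genes of these families, against 5426 of all 21938, and 88.5% of CpG-rich protein-coding promoters had a peak in all 5 lists. The highest members were Ndufc2, Mrpl48, Rpl11, Ube2w and Psma3. Their rank scores were 92.8 ± 2.78, 98.6 ± 2.05, 92.9 ± 4.27, 97.8 ± 2.66 and 96.6 ± 2.18. The score of Mrpl48 is also that of Rab6a, a Rab GTPase that starts close by on the opposite strand, so the peak cannot be credited to either gene. The median score, with absent peaks as 0, was 50.8 for cytosolic ribosomal protein, 53.0 for mitochondrial ribosomal protein, 52.8 for proteasome, 62.3 for complex I and 70.8 for ubiquitin-conjugating enzyme genes.

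Families of the synapse were mostly above the background. Of 10 calcium/calmodulin-dependent kinase genes 9 had a peak in all 5 lists, with Camk2b highest (95.9 ± 4.65), and of 17 synaptotagmins, which sense calcium at vesicles, 13 did, with Syt3 highest (88.7 ± 5.48). Ionotropic glutamate receptor genes had one in 14 of 20 cases, with Grik4 highest, calcium channels in 18 of 26, with Cacna1i at 91.7 ± 2.25, and potassium channels in 60 of 94. GABA-A receptor genes were close to the background with 10 of 19. Gabra2 was the highest of them at 92.6 ± 8.97, and 8 of the 19 had no peak in any list. CpG-rich promoters were few in 2 of these families (1 of 19 GABA-A receptor and 2 of 17 synaptotagmin genes). They were 2 of 10 CaM kinase, 20 of 94 potassium channel, 5 of 20 ionotropic glutamate receptor and 7 of 26 calcium channel genes, against 5426 of all 21938 protein-coding genes.

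Large families of general function lay near the background, with 219 of 394 Zfp zinc finger genes and 201 of 371 solute carriers. Families of transcription factors that pattern the embryo were lower. Fox genes had a peak in all 5 lists in 17 of 44 cases, Sox genes in 8 of 19 and Hox genes in 1 of 39, Hoxa7. CpG-rich promoters made up 52.3% of Fox, 57.9% of Sox and 23.1% of Hox genes, so some CpG-rich promoters of each family lacked a peak in at least 1 list, in a class of which 88.5% had one in all 5 lists over all protein-coding genes.

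Receptor families of other organs were nearly empty. Of 1135 olfactory receptor genes 4 had a peak in all 5 lists and 1124 had none in any list, and of 329 vomeronasal receptors 1 and 327. Olfr525 was the highest olfactory receptor, with a score of 38.9 ± 12.4. Defensins (64 genes) and major urinary proteins (22 genes) had no peak in any list. None of the olfactory receptor genes and 1 of the 329 vomeronasal receptor genes has a CpG-rich promoter, and of all CpG-poor protein-coding promoters 71.5% had no peak in any list. How reads that match several copies of a gene were treated is not given in the sources used here, and its part in these counts was not tested. Some other families of immune and epithelial tissues were below the background but not empty. Interleukins had a peak in all 5 lists in 5 of 33 cases, chemokines and their receptors in 6 of 52, serpins in 7 of 61 and keratins in 7 of 53, and 21, 39, 45 and 40 genes of these families had none in any list. CpG-rich promoters were found at 1, 3, 1 and 0 genes of these families and at 3 of 100 cytochrome P450 genes, and of all CpG-poor protein-coding promoters 16.3% had a peak in all 5 lists. Cytochrome P450 enzymes had one in all 5 lists in 11 of 100 cases and none in any list in 78. Cyp7b1, an oxysterol hydroxylase of the brain, was the highest of them at 92.1 ± 5.03. Clustered protocadherins, adhesion molecules of which single neurons use few, had one in 2 of 57 cases, with Pcdhac2 highest at 73.3 ± 20.2.

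**Figure D3:**
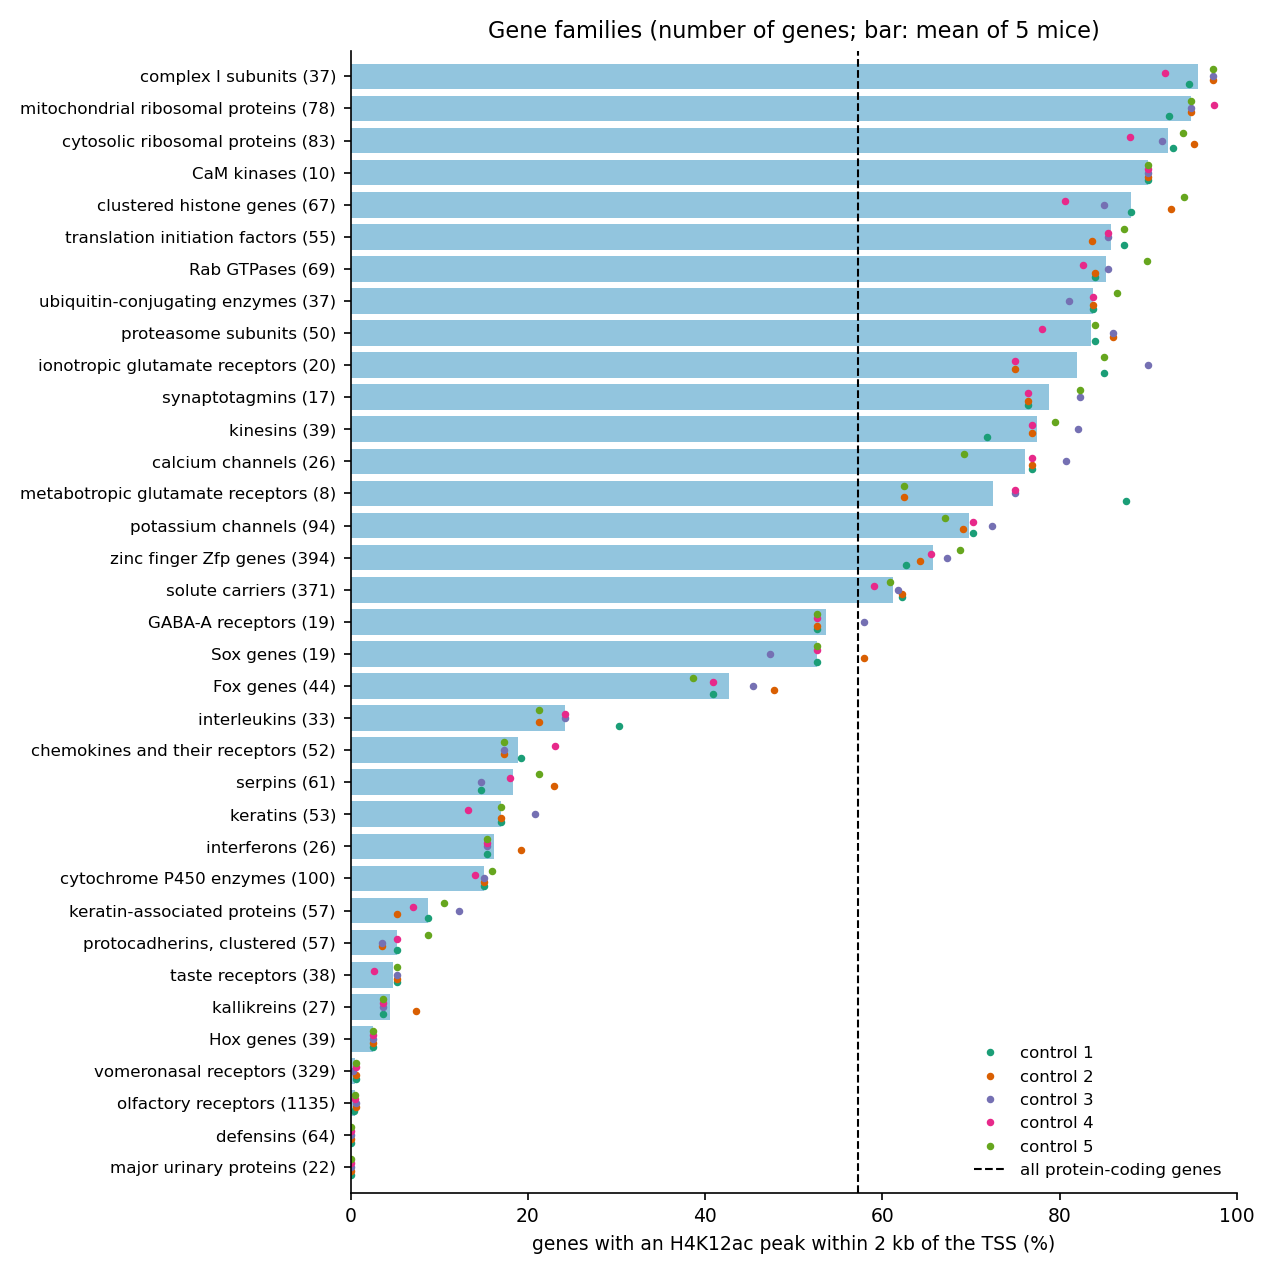
Percent of genes with an H4K12ac peak within 2 kb of the TSS in 35 gene families, with the number of genes in brackets. Bars are means of the 5 control mice, points single mice, and the dashed line is the mean over all protein-coding genes, 57.3%. Complex I and ribosomal protein genes have means of 92.3% or more, and Hox genes, olfactory and vomeronasal receptors, defensins and major urinary proteins at or below 2.56%.

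Marker genes checked the labelled cell type, each at the outermost annotated 5′ end of the gene. A marker without a peak there may have one at another start, which was not scored on its own. All 10 pan-neuronal genes had a peak in all 5 lists, as did 7 of 8 markers of excitatory neurons, against 51.0% of all protein-coding genes. By class this share was 88.5% of CpG-rich, 72.0% of intermediate and 16.3% of CpG-poor protein-coding promoters. All pan-neuronal genes except Rbfox3 and Stmn2 are CpG-rich or intermediate, whereas most of the excitatory markers are CpG-poor. Elavl3, an RNA-binding protein of neurons, had rank scores of 86.7, 93.1, 98.5, 91.8 and 85.9 in mice 1 to 5. Neurod2, a transcription factor of excitatory neurons, had 97.1, 94.7, 99.8, 70.2 and 88.6, and Slc17a7, the vesicular glutamate transporter, 72.2, 78.9, 64.4, 61.4 and 72.4. All were present throughout, Neurod2 lowest in mouse 4. Rbfox3, which encodes the neuronal nuclear antigen NeuN, had 54.6, 99.01, 95.1, 97.5 and 92.4, with mouse 1 apart from the others and a median summit 1781 bp from the TSS.

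Markers of inhibitory neurons were nearly without peaks. Gad1 and Gad2, which make GABA, Slc32a1, its vesicular transporter, Sst, Vip, Lhx6 and Dlx1 had no peak in any list, and Pvalb had one in 3 lists, with fold enrichments of 3.599, 3.40 and 4.08 in mice 1, 3 and 4. Over all protein-coding genes, 36.8% had no peak in any list. Inhibitory neurons are a minority of hippocampal neurons, and fewer nuclei of a type and less acetylation per nucleus cannot be told apart in these mixed samples. Markers of each subfield spread widely in rank score. Of CA1 markers Fibcd1 had 70.5 ± 11.9, Wfs1 31.2 ± 16.2 and Pou3f1 29.4 ± 14.2. Of CA3 markers Grik4 had 99.4 ± 0.511, Bok 59.1 ± 17.5 and Nectin3 26.4 ± 14.5. Of dentate gyrus markers C1ql2 had 62.2 ± 11.2, Prox1 49.2 ± 19.3, Dsp 38.6 ± 13.2 and Calb1 10.5 ± 7.92. Peaks were present in all 5 lists at 3 of 3, 3 of 3 and 3 of 4 genes of these lists, Calb1 lacking one in mouse 1, against the 51.0% of all protein-coding genes.

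Markers of glia and vessels were mostly at or near 0. Of 7 microglia genes 6 had no peak in any list, of 6 endothelial genes 5, of 8 oligodendrocyte genes 5, of 7 astrocyte genes 2 and of the 2 precursor genes 1. The share without a peak in any list was 36.8% over all protein-coding genes and 71.5% over those with CpG-poor promoters, a class that holds all 7 microglia genes and most of the other glial genes. Olig2, Olig1, Mog, Aqp4, Aldh1l1, Cx3cr1, Csf1r, Cldn5 and Pecam1 were at 0 in every mouse. Other genes of the same lists had a peak in some mice, Aldoc in 4 lists, Kdr in 3, Slc1a3, Sox10 and Cspg4 in 2, and S100b and Gja1 in 1, with mean rank scores of 0.390 (S100b) to 12.99 (Kdr). Gfap and Cnp had a peak in all 5 lists at scores of 28.9 ± 21.7 and 38.4 ± 8.98. Mbp, a myelin gene whose locus also encodes the Golli proteins found in neurons, was the exception, with fold enrichments of 9.74, 8.31, 8.39, 7.91 and 7.74 in mice 1 to 5. Those values are high throughout, its median summit lay 288 bp from the TSS, and no other gene starts within 10 kb. This TSS is the outermost annotated 5′ end of Mbp. Other starts of the gene were not scored on their own, so the peak cannot be credited to its myelin transcripts. P2ry12, a microglial receptor, had a peak in 4 lists with fold enrichments of 3.45 to 4.57.

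Of 11 genes of other organs 8 had no peak in any list. That share was 36.8% over all protein-coding genes and 71.5% over those with CpG-poor promoters. All of the 11 except Ddx4 and Dazl belong to the CpG-poor class, so the count lies near the share of that class. Acta1, the actin of skeletal muscle, had rank scores of 93.4, 88.4, 81.8, 84.7 and 96.5 in mice 1 to 5, but its strongest summit lay a median of 2407 bp downstream of the TSS, and the antisense gene Gm29773 starts within 2 kb of that TSS. Apoa1, an apolipoprotein of the liver, had 60.04 ± 6.70 with a summit at 1731 bp, whereas Dazl, an RNA-binding protein of germ cells, had 85.3 ± 9.95 with a summit at 694 bp and no other start within 10 kb. The summits of Acta1 and Apoa1 thus lay farther from the start site than that of Dazl.

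Immediate early genes, which neurons induce upon activity, all had a peak in all 5 lists (12 of 12), in mice for which no stimulation is stated. The background was 51.0% of all protein-coding genes, 88.5% of those with CpG-rich and 72.0% of those with intermediate promoters, and all but Npas4 and Dusp1 belong to these 2 classes. Egr3 was highest with fold enrichments of 9.32, 9.35, 9.30, 7.66 and 9.19, followed by Junb (score 85.2 ± 8.59), Nr4a1 (80.5 ± 11.7), Fosb (80.0 ± 15.2) and Dusp1 (79.0 ± 13.3). Mouse 4 stood below the other 4 mice at Egr3. Arc, a synaptic regulator, had 56.0 ± 13.1. Fos was lowest, with 26.3 ± 6.26 and its median summit at -1473 bp, and Npas4 ranged from 13.4 to 43.7.

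**Figure D4:**
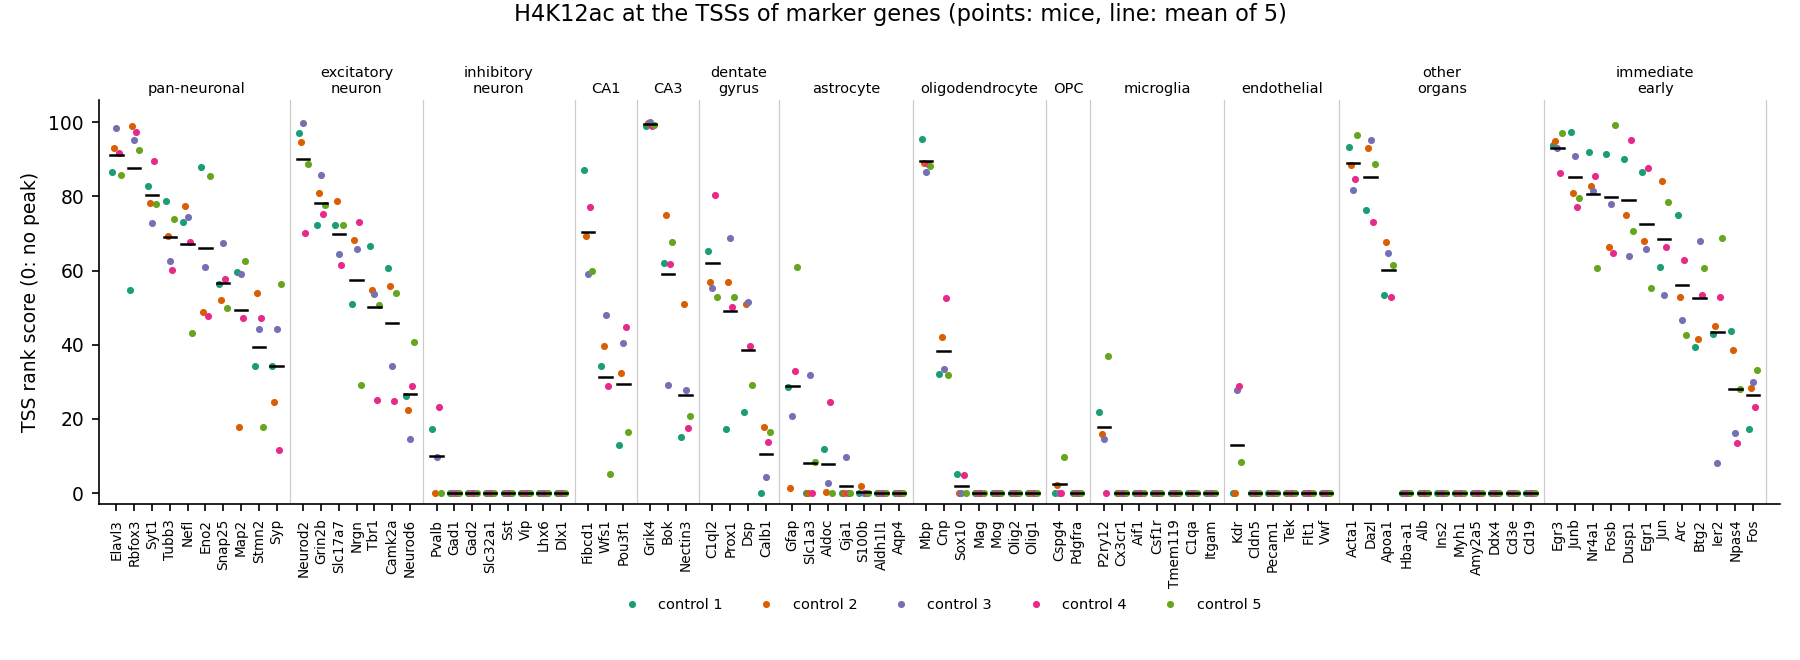
TSS rank score of the marker genes reported here, from 0 (no peak within 2 kb) to 100 (strongest), grouped by list. Points are the 5 control mice and lines their mean. Pan-neuronal and immediate early genes lie above 0 in every mouse, 7 of 8 inhibitory neuron genes lie at 0, and Mbp, Acta1 and Dazl stand out among the lists of other cells.

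Inside genes, over 2 kb from any start, exons held more peaks than their length would give. Summits per megabase came to 108 ± 14.8 in exons, 76.8 ± 12.6 in the first intron, 66.9 ± 12.4 in other introns and 34.02 ± 5.40 in the remaining gene bodies. With unsequenced bases counted in the length, which the densities leave out, peaks covered 3.61, 3.998, 3.14, 2.16 and 3.96% of the bases of first introns in mice 1 to 5 and 2.99, 3.38, 2.52, 1.75 and 3.34% of those of other introns. First introns were covered more in every mouse, and mouse 4 was lowest in both. The difference was 0.577 ± 0.0949 percentage points in 5 of 5 mice (exact two-sided sign-flip p = 0.0625, adjusted 0.0677), 0.618 in lane 7 and 0.515 in lane 8.

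Body peaks went with a peak at the TSS of the gene. Where the TSS had a peak in all 5 lists (10634 genes), peaks covered 4.18 ± 0.976% of the gene body, from 2.65% in mouse 4 to 5.03% in mouse 2. Where it had none in any list (6985 genes) they covered 1.11 ± 0.214%, and with a peak in 1 to 4 lists 1.61 ± 0.324%. Every mouse showed more coverage in the first group than any mouse in the others. A body peak was present in 57.8 ± 3.40% of genes of the first group and in 14.7 ± 0.677% of genes without a TSS peak. The bodies differed in size, with 620 Mb over the 10634 genes and 226 Mb over the 6985 genes. The part of body length in these shares of genes was not tested. Among gene body regions in all 5 lists, those of highest mean rank by fold enrichment lay in 3110039M20Rik (11.1 ± 0.818), in an exon of Rcbtb2 (11.1 ± 0.605), in Src, a tyrosine kinase, 6015 bp from its start (10.9 ± 0.805), in an exon of Chadl (11.03 ± 1.27) and in Ywhaz, a signalling adaptor protein (11.8 ± 1.98). By mean fold enrichment Ywhaz was the highest of these, although its mean rank was the lowest of the 5.

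Between genes, 52.5 ± 0.114% of peaks lay 10 to 50 kb from the nearest TSS and 5.36 ± 0.271% over 100 kb away. Median fold enrichment changed little with distance, from 3.52 ± 0.148 at 2 to 5 kb to 3.42 ± 0.130 over 100 kb. The strongest intergenic region, chr2:30706829-30710069, had fold enrichments of 13.8, 12.8, 14.1, 12.3 and 12.9 in mice 1 to 5. No gene body region of the 5 highest matched its mean of 13.2 ± 0.742, and it lay 12260 bp from the start of Gm14488, the lncRNA gene described above. Region 2 lay 9224 bp from Gm44734 on chromosome 7, with Chd2 as the nearest coding gene (12.5 ± 1.53), region 3 near Atp23 (11.4 ± 1.65), region 4 again on chromosome 2, near 1700001O22Rik (10.99 ± 1.39), and region 5, the tandem repeat printed above, near Tldc1 (11.1 ± 1.22).

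Ranked by pileup, a different set of regions led. The 10 constant regions with the highest pileup all lay in 1 intergenic segment of 127 kb, chr6:47651446-47778591, between Ezh2 and Pdia4, next to genes of small RNAs such as Rny3. The highest had pileups of 228, 231, 223, 179 and 219 fragments in mice 1 to 5, with fold enrichments of only 5.04, 4.84, 5.62, 5.03 and 7.44. All 5 pileups lay far above the median of their lists, and mouse 4 was the lowest. The input was also high in this segment, with a local background of 5.14 to 11.5 times the genome-wide level in its 26 constant regions and a median fold enrichment of 5.48. Of 39572 constant regions in all, 31 had a background over 5 times the genome-wide level, and 83.9% of these lay in the segment. The single highest pileup of mice 1 to 4, 386, 416, 385 and 376 fragments, lay elsewhere, on chromosome 2 from about position 98666404 to 98667360, where the background was about 78 times the genome-wide level and fold enrichment only 1.33, 1.35, 1.45 and 1.65. With duplicates removed, pileup cannot pass about 2 times the fragment length, which was 412, 432, 402 and 398 in mice 1 to 4. The pileups of these mice there lie near this ceiling, which also limits their fold enrichment. Mouse 5 had no peak there. The part of the high background in these pileups was not tested, nor was that of reads that match several places, whose treatment is not given in the sources used here.

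The X chromosome carried few peaks. Per megabase there were 3.59 ± 0.716 peaks on the X and 48.8 ± 6.79 on the autosomes, a ratio of 13.6, 12.5, 14.7, 14.8 and 13.01 in mice 1 to 5. All mice lay close together in this ratio. Protein-coding TSSs on the X had a peak in 26.6, 26.8, 24.7, 20.99 and 27.6% of cases and autosomal ones in 59.2, 59.99, 59.6, 57.9 and 59.5%. The X was lower in each mouse, with a difference of X-linked minus autosomal of -33.9 ± 2.03 percentage points (exact two-sided sign-flip p = 0.0625, adjusted 0.0677). CpG-rich promoters also differed, with a peak at 63.3 ± 7.27% of 73 on the X and 93.5 ± 0.589% of 5352 on autosomes. Among X-linked peaks 56.5 ± 3.61% lay at promoters, against 21.5 ± 2.16% on autosomes.

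Background and copy number bear on this result and their part in it was not tested. MACS took the genome-wide level as background for 90.6 ± 1.33% of X-linked peaks and for 29.4 ± 2.94% of autosomal peaks, that is, the local input of these peaks did not exceed it. Median pileup was 15.8 ± 1.10 on the X and 17.4 ± 1.52 on the autosomes, whereas median fold enrichment was 3.66 ± 0.174 on the X and 3.53 ± 0.133 on the autosomes. The labels call these mice male, in which the X has a single copy. The highest X-linked genes were Stag2, a cohesin subunit, with fold enrichments of 8.26, 8.33, 7.94, 7.15 and 7.35, and Cnksr2, Pdzd4, Pnck and Pja1, with means of 6.19 to 6.43. Stag2 was the highest in score at 84.8 ± 3.59. On the Y chromosome the lists held 6, 68, 1, 1 and 5 peaks, all within chrY:90717545-90842678, where the same doubt about reads that match several places holds, and Ddx3y, Kdm5d, Uty and Eif2s3y, the widely expressed Y-linked genes, had no peak in any list.

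Agreement between lists grew with the strength of a peak. Merging all peaks gave 210077 regions, of which 39572 (18.8%) had a peak from all 5 lists and 95759 (45.6%) from a single list. Regions in all 5 lists were few in number but took up 53.0 Mb. They held 48.8 ± 8.39% of the peaks of a list. With each list split at the deciles of fold enrichment into 10 groups, which hold 8225 to 15566 peaks because of tied values, 97.9 ± 0.906% of the strongest group lay in such regions and 28.8 ± 10.5% of the weakest. Constant regions had a median fold enrichment of 4.44 against 3.09 for those of a single list. Without mouse 4, the shortest list, 48034 regions had a peak in every remaining list.

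Promoters were the most constant class. Of 32410 promoter regions 42.6% were in all 5 lists, of 137152 gene body regions 13.8% and of 40515 intergenic regions 16.8%. Among the peaks of a list, 71.3 ± 5.71% of promoter peaks, 41.8 ± 8.69% of gene body peaks and 45.2 ± 7.44% of intergenic peaks lay in constant regions. Between 47.2 and 75.2% of the peaks of a list overlapped a peak of another, over 20 ordered pairs. The lowest value was for mouse 2 in mouse 4 and the highest for mouse 4 in mouse 5. For promoter peaks the overlap was 69.0 to 87.2%, for gene body peaks 40.5 to 70.6% and for intergenic peaks 45.9 to 72.9%.

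Fold enrichment ranked the constant regions alike in different mice to a moderate degree. Spearman's rho between lists was 0.623 to 0.670 over 39572 regions, and it averaged 0.718 over promoter, 0.508 over gene body and 0.512 over intergenic regions. The lists share the input, so part of the background is common to both members of each pair, and regions are not independent replicates. The 3 pairs of mice of lane 7 had the highest values, 0.668 to 0.670, and the pair of lane 8, mice 4 and 5, the lowest, 0.623. This order did not hold within gene body or intergenic regions, where mouse 5 with mice 1 and 2 gave the highest values (0.529 and 0.528 in gene bodies, and 0.541 for both between genes) and mouse 2 with mouse 4 the lowest (0.477 and 0.473). Where each list had a single peak in a constant region, summits spread over a median of 195 bp at promoters, 273 bp in gene bodies and 256 bp between genes.

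**Figure D5:**
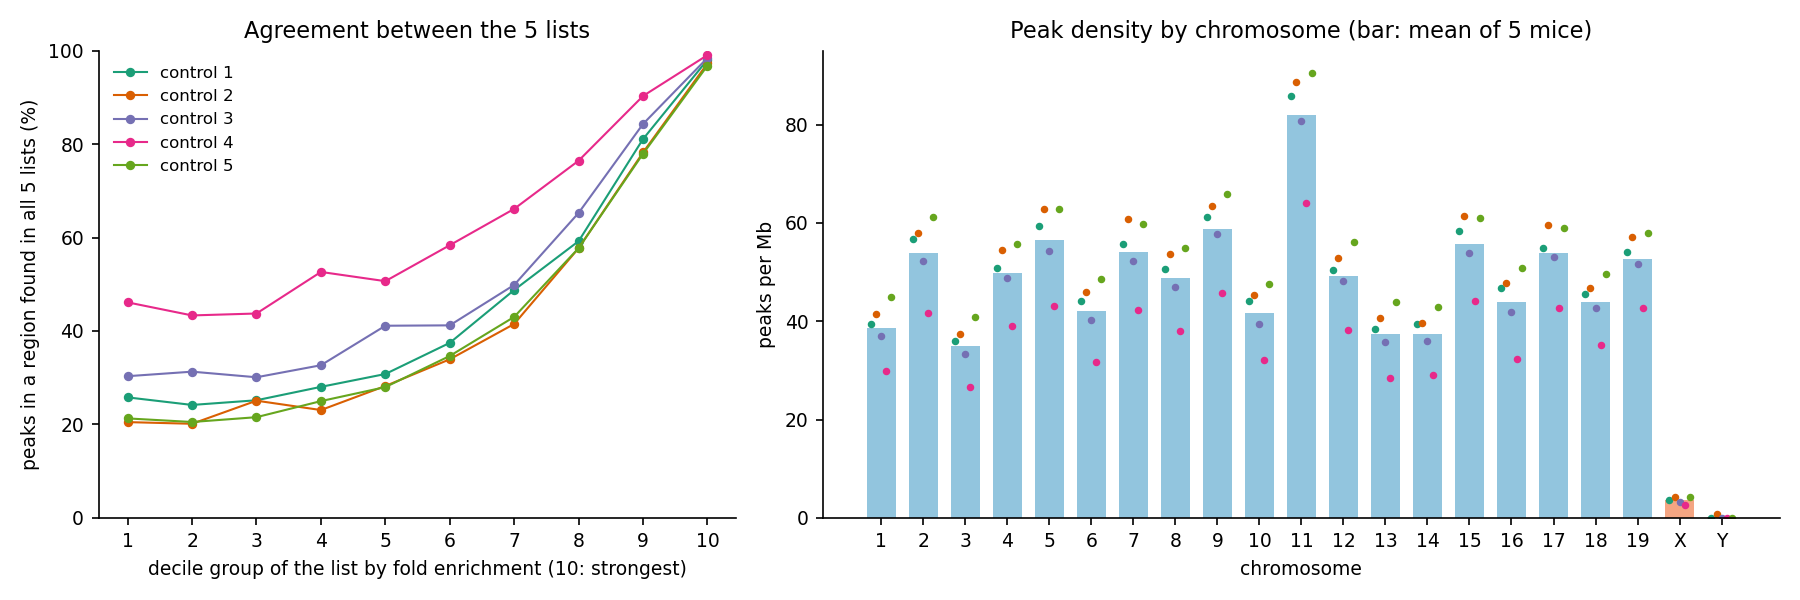
Left, percent of the peaks of a list that lie in a region found in all 5 lists, against 10 groups of the list split at the deciles of fold enrichment, from the weakest to the strongest, for the 5 control mice. Right, peaks per Mb by chromosome, with bars for the mean and points for single mice. The strongest group reaches 97.9 ± 0.906%, chromosome 11 is the densest with 82.0 ± 10.7 peaks per Mb and the X holds 3.59 ± 0.716.

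Base composition differed between classes. In 200 bases around the summit, constant promoter regions had a median GC content of 65.5%, gene body regions 54.5% and intergenic regions 53.5%, against 41.5% in 127977 windows placed every 20 kb over the genome. Regions of a single list had 51.0% at promoters and 49.5% between genes. The observed to expected CpG ratio at summits had a median of 0.515 ± 0.0310 in promoter peaks and of 0.2013 ± 0.00492 and 0.198 ± 0.00481 in gene body and intergenic peaks. The windows printed above of the first-ranked intergenic and gene body regions, with 21 and 22 CG, lay far above the median of 3 CG per window in the constant regions of their classes.

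Motifs were counted as exact letters on both strands of the same windows. The GC box GGGCGG was present in 39.2% of constant promoter windows, 9.66% of gene body and 8.31% of intergenic windows, against 1.98% of the genome windows. The AP-1 motif TGANTCA showed the opposite order, with 2.50, 5.06 and 5.74% against 6.02%. The E-box CAGATG, a form bound by NeuroD factors, was in 8.86, 17.9 and 18.9% of windows against 15.1%, so intergenic and gene body regions were slightly above the genome and promoters below it. Regions of a single list had it in 18.2% of gene body and 19.0% of intergenic windows, close to the constant regions, and in 15.4% of promoter windows, above the constant ones. Upstream of the TSS, in the 200 bases used for the sequences above, GGGCGG was in 69.4% of 4801 CpG-rich promoters with a peak in all 5 lists and in 69.5% of 190 CpG-rich promoters without any peak, against 37.5% of all 21938 protein-coding promoters. It was more frequent with a peak in the other classes, in 50.7% against 42.5% of intermediate and in 22.8% against 7.38% of CpG-poor promoters. In the CpG-rich sets the ETS motif CCGGAAGT was in 5.42 and 2.11%, against 3.04% of all promoters, and the CRE motif TGACGTCA in 3.37 and 2.11%, against 1.86%. Each share of 2.11% rests on 4 of 190 promoters. A match describes the letters of a window and no binding was measured.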

How the data were processed

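H4K12ac ChIP-seq libraries of 5 control mice were described from the peak lists that the authors deposited. Per the methods of the study, reads were aligned to mm10 with STAR, duplicates were removed with SAMtools, and peaks were called with MACS2 at a q below 0.1. The headers of the lists name MACS 2.1.0.20140616 and a pooled input as control. In the deposited lists pileup is a coverage signal, counted in fragments where the peak is highest, and fold enrichment a ratio to the local background, while the deposited −log10 p-value and −log10 q-value describe the call. Here the local background was recovered from pileup and fold enrichment. Peaks were set against GENCODE mouse release M21 (pandas 2.3.3, numpy 2.4.6 and pysam 0.24.0 under Python 3.11.15). Class medians and shares were compared by an exact two-sided sign-flip test over 5 mice with Benjamini-Hochberg adjustment over 13 tests. The code was tested on simulated data.

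Named genes were the 20 protein-coding, 5 lncRNA and 5 X-linked genes of highest mean rank score, the 10 regions highest by pileup and the 10 longest, the 5 highest intergenic and 5 highest gene body regions by mean rank of fold enrichment, the highest member of each family, and the markers. Members and lists were chosen with earlier results of these data known. Alternatives were a stricter q, equal list sizes, a 1 kb promoter window, all transcripts as start sites, another position rule, another overlap rule, single lanes and leaving out each mouse. The lists of knock-out mice were not used here. A few markers and family members are not reported here. No column of another sample was used. Intervals of counting error were not computed, since the lists hold no reads.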

Additional observations from a re-analysis of the deposited data

Results flagged for a closer look

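In 10 of 165 quantities with a value for each of the 5 mice, 1 mouse stood apart from the other 4 by a gap of over 0.71 of the range of the 5 values. Chance flags about 1 in 20 such groups, and 10 of 165 is 6.06%. Mouse 4, the library with the fewest tags, accounted for 6 of the 10.

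In mouse 4 the coverage of first introns minus other introns was 0.407 percentage points, against 0.615 to 0.623 in the other mice. Its share of intermediate protein-coding promoters with a peak was 78.8%, against 80.5 to 81.2%. At Egr3 its fold enrichment was 7.66, against 9.19 to 9.35. Its pileup was also low in 3 regions of the segment on chromosome 6, with 179 against 219 to 231 fragments, 136 against 166 to 173 and 123 against 158 to 171.

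In mouse 5 the highest pileup was 219 fragments, against 376 to 416 in the others, and intergenic peaks made up 9.0% of its 1000 highest peaks by fold enrichment, against 3.9 to 4.9%. Mouse 2 had 68 peaks on the Y chromosome, against 1 to 6, which covered 45469 bp of the segment chrY:90717545-90842678. At the lncRNA gene Gm48623 mouse 1 had a fold enrichment of 9.81, against 11.7 to 11.9.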

How the results depend on the processing

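Of 183 values under alternatives, 174 kept their direction and their side of the threshold or stayed within the limits set for a change, 6 turned sign and 3 moved. Among the 174, 4 differed from the value reported by over 1.5 times. All 6 that turned belong to the pileup of gene body minus intergenic peaks, which was 0.00 on the log2 scale. It was -0.0165 with a q below 0.01 and with the same number of strongest peaks per list, -0.0156 under the other position rule, -0.0331 with all transcripts as start sites and -0.0390 in the mice of lane 8. It was 0.0275 in the mice of lane 7. Leaving out each mouse gave -0.0195 (without mouse 2) to 0.0206 (without mouse 5). The promoter share of peaks, 21.7%, was 24.1% with equal list sizes, 16.9% with a window of 1 kb and 31.01% with all transcripts. Fold enrichment of promoter minus intergenic peaks was 0.27, with 0.165 for all transcripts as start sites and 0.370 for a window of 1 kb, and length of gene body minus intergenic peaks was -0.0400, with -0.0613 for all transcripts. The CpG difference ranged from 65.2 to 74.3 points. Regions in all lists, 39572, fell to 31372 with equal list sizes, to 37263 with a q below 0.01 and to 39094 with the other overlap rule, and rose to between 41832 and 48034 when a mouse was left out. No paired analysis was possible across groups because only 1 of the groups that share replicate numbers, the control mice, is described here, and the tests compare values within each mouse. The sign-flip test cannot pass 0.05 with 5 mice, and a shared input hides the error of the background. Depth also differed between lists, and its part in the calling of weak peaks was not tested.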
